A study of Mus musculus with 10 samples.

Results

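The interneuron lineage genes followed here are Dlx1, Dlx2, Dlx5, Dlx6, Lhx6, Sp9, Gad1, Gad2 and Erbb4, 9 of the 22373 genes in the footprint table. They were picked by symbol for their known roles in cortical inhibitory neurons, and with earlier results of these data known. All 9 were among the 13484 genes that passed the filter on low counts. Ribo-seq, the sequencing of ribosome-protected mRNA fragments (footprints), was performed on neocortex of wild-type CD-1 mice at 5 stages, of which 4 are embryonic (E12.5, E14, E15.5 and E17) and the last is P0, with embryos aged from timed mating and P0 the day of birth. Each stage has 2 libraries, each from a pool of brains of both sexes, and the spread between animals within a pool cannot be seen. There was no treatment or genotype to compare, and all 10 lysates were digested with RNAse-T1 and RNAse-A before 80S monosomes were collected.

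Cortical interneurons release the inhibitory transmitter GABA. They are not born in the neocortex but in the ganglionic eminences below it, and migrate tangentially into the cortical wall while the local stem cells make glutamatergic neurons. Dlx and Lhx6 transcription factors direct their specification and migration, glutamate decarboxylases make their transmitter, and the receptor ErbB4 responds to neuregulins on their route. A footprint count reflects both how much mRNA is present and how densely ribosomes sit on it, and in bulk tissue a change in the number of cells that carry the mRNA and a change in mRNA per cell cannot be told apart.

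The libraries held between 7544404 and 36129988 counts. P0 replicate 1 was the smallest, and the other 9 held at least 21378041. Log2 ratios between the 2 replicates had an SD across genes of 0.13 to 0.22 in the embryonic stages and 0.54 at P0, so that values at P0 are less certain. Levels are given in CPM, counts relative to library size after TMM scaling, and with few footprints per gene they also carry counting error. A change was called at an adjusted p under 0.05 (limma-voom, Benjamini-Hochberg over all 13484 genes) and a fold change of at least 25%.

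All 9 genes rose between E12.5 and P0, by 1.5 (Erbb4 and Sp9) to 4.74 (Gad1) on the log2 scale, with a median of 3.06 against -0.01 for all genes tested. The background of this count is 30.1% of genes called higher and 32% called lower. The summed level of the 9 genes was 16.9 and 18.4 CPM in the E12.5 libraries, 36.4 and 41.3 (E14), 127 and 132 (E15.5), 141 and 148 (E17), and 172 and 178 (P0). The E15.5, E17 and P0 libraries stood above all those of E12.5 and E14 in this sum, and the gap between E14 and E15.5 was the widest between neighbouring stages. The sum is weighted toward genes with many counts: Lhx6 gave a mean of 67.9 CPM at E15.5, and Gad1 went from 25.6 (E17) to 52.6 (P0). All 9 also passed the F test across the 5 stages, for which the background is 63.8% of genes.

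**Figure D1:**
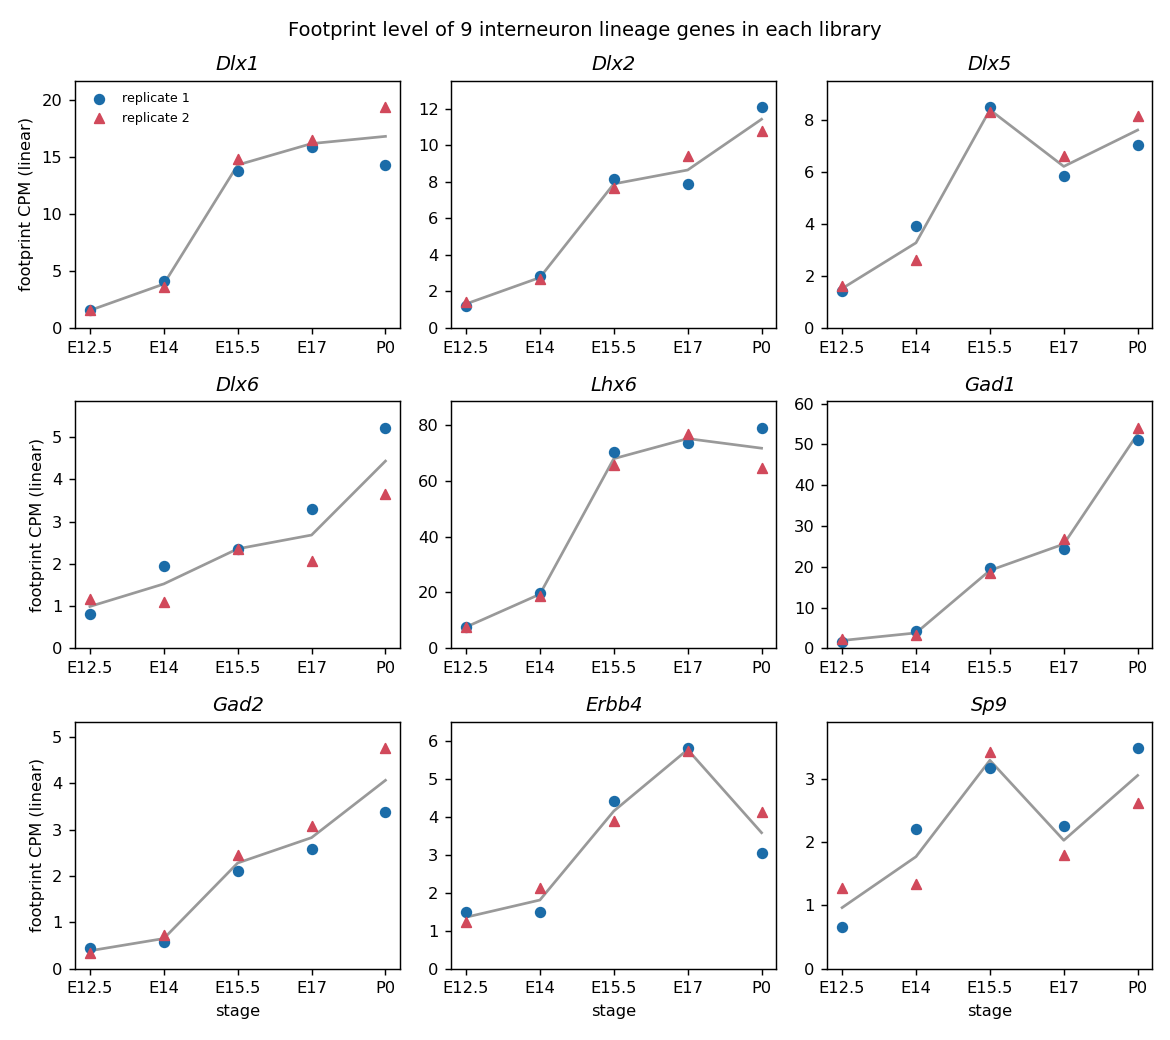
Footprint level in CPM (linear axis from 0, scaled separately in each panel) of the 9 genes by stage, with circles for replicate 1, triangles for replicate 2 and a line through the stage means. Lhx6 goes from 7.64 CPM at E12.5 to 67.9 at E15.5 and then stays between 64.3 and 78.9 in single libraries, Gad1 goes on from a mean of 25.6 at E17 to 52.6 at P0, and Erbb4 is highest at E17.

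Dlx1 and Dlx2 encode homeodomain factors that act in ganglionic eminence progenitors and in their migrating progeny, and they are neighbours in the RefSeq annotation. Dlx1 (ENSMUSG00000041911) had 1.54 and 1.53 CPM (E12.5), 4.11 and 3.58 (E14), 13.8 and 14.8 (E15.5), 15.8 and 16.4 (E17), and 14.2 and 19.3 (P0). Dlx2 (ENSMUSG00000023391) had 1.21 and 1.42 CPM (E12.5), 2.83 and 2.69 (E14), 8.14 and 7.64 (E15.5), 7.88 and 9.42 (E17), and 12.1 and 10.8 (P0). Both genes separated E12.5, E14 and E15.5 without overlap, whereas the E17 and P0 libraries of Dlx1 and the E15.5 and E17 libraries of Dlx2 overlapped. From E14 to E15.5, Dlx1 rose by 1.90 on the log2 scale (SE 0.16, limma-voom adjusted p 0.000144) and Dlx2 by 1.51 (SE 0.15, adjusted p 0.000232). Of the rise from E12.5 to P0, this step held 54.8% for Dlx1 and 49.5% for Dlx2.

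Dlx5 and Dlx6 form a second neighbouring pair of homeodomain genes, known to be activated downstream of Dlx1 and Dlx2. Dlx5 (ENSMUSG00000029755) had 1.43 and 1.61 CPM (E12.5), 3.93 and 2.63 (E14), 8.50 and 8.32 (E15.5), 5.84 and 6.61 (E17), and 7.07 and 8.19 (P0). Dlx6 (ENSMUSG00000029754) had 0.825 and 1.16 CPM (E12.5), 1.94 and 1.11 (E14), 2.35 and 2.36 (E15.5), 3.30 and 2.06 (E17), and 5.22 and 3.65 (P0). Dlx5 was highest at E15.5, with both E17 libraries below those of E15.5 and P0, and Dlx6 was highest at P0. From E14 to E15.5, Dlx5 rose by 1.41 on the log2 scale (SE 0.18, adjusted p 0.000745), while the value of Dlx6, 0.73 (SE 0.34, limma-voom adjusted p 0.13), was not called. The lower level of Dlx5 at E17 (log2 fold change against E15.5 of -0.44, SE 0.17, adjusted p 0.144) was not called either.

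Dlx6 had only 15 to 153 counts per library, and its E12.5 and E14 libraries overlapped. Against E12.5 it was called higher at E15.5 (1.20, SE 0.41, limma-voom adjusted p 0.041), at E17 (1.36, SE 0.40, 0.0203) and at P0 (1.98, SE 0.40, 0.00273). Without E12.5 replicate 1 the first value was 1.01 and was not called (adjusted p 0.149). It was also not called without E12.5 replicate 2 or either E15.5 library (0.1 to 0.116), with adjusted p between 0.0264 and 0.149 over all 10 fits that each left out a library. The call at E17 was lost without either E12.5 library or E17 replicate 1 (0.0753 to 0.0957). The RefSeq annotation places the long non-coding RNAs Dlx6os1 and Dlx6os2 over Dlx6, the antisense RNA Dlx1as over Dlx1, the long non-coding RNA Gad1os over Gad1, the long non-coding RNA Gm51744 and the pseudogene Gm25542 over Erbb4, and the microRNA gene Mir3967 over Gad2. These overlaps are of whole gene spans, introns included, and whether any exons are shared was not examined. Whether the counts used strand is not stated. Reads from any shared exons of these genes and of Dlx6, Dlx1, Gad1, Erbb4 or Gad2 therefore might not be told apart.

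Lhx6 encodes a LIM-homeodomain factor of interneurons from the medial ganglionic eminence. It had 139 to 2696 counts per library. Lhx6 (ENSMUSG00000026890) had 7.65 and 7.63 CPM (E12.5), 19.9 and 18.8 (E14), 70.1 and 65.6 (E15.5), 73.5 and 76.6 (E17), and 78.9 and 64.3 (P0). The first 3 stages were far apart, and the P0 libraries lay on either side of those of E15.5 and E17. As log2 fold changes, Lhx6 rose by 1.34 in the step to E14 (SE 0.13, limma-voom adjusted p 0.0164) and by 1.81 in that to E15.5 (SE 0.12, adjusted p 6.04e-05). It was then called neither from E15.5 to E17 (0.14, SE 0.11, adjusted p 0.472) nor from E17 to P0 (-0.09, SE 0.11, adjusted p 0.608). The sign of the last value turned with library totals in place of TMM (0.02) and without P0 replicate 2 (0.07).

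Sp9 encodes a zinc-finger factor of ganglionic eminence progenitors and immature interneurons. Sp9 (ENSMUSG00000068859) had 0.660 and 1.27 CPM (E12.5), 2.21 and 1.33 (E14), 3.16 and 3.42 (E15.5), 2.25 and 1.80 (E17), and 3.48 and 2.63 (P0). Both E17 libraries lay below both of E15.5 and both of P0, and overlapped those of E14. The rise from E14 to E15.5 was 0.97 on the log2 scale (SE 0.28, limma-voom adjusted p 0.0259), and the value from E15.5 to E17, -0.69 (SE 0.26, adjusted p 0.148), was not called. The rise was 0.56 and not called without E14 replicate 2 (adjusted p 0.235), and it was also lost without either E15.5 library (0.0879 and 0.109), with edgeR (0.0599) and with DESeq2 (0.128). Its adjusted p ranged from 0.00571 to 0.235 over all alternatives. Sp9 was called higher than at E12.5 at E17 (1.03, SE 0.37, 0.0451), a call lost without any 1 library of E12.5, E15.5 or E17 (0.0618 to 0.193) and with DESeq2 (0.066). Without E12.5 replicate 1 this value was 0.67 and without E12.5 replicate 2 it was 1.57.

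For Dlx2 and Sp9, the RefSeq start site in the promoter table is also the outermost end of the gene, so the 250 bases before it lie outside both genes. These windows are shown because both genes belong to the group that was called higher from E14 to E15.5. Coordinates are those of RefSeq on GRCm38.p6, and the sequences are written 5′ to 3′ on the strand of the gene. The Dlx2 window is chr2:71546755-71547004 on the minus strand and the Sp9 window chr2:73271676-73271925 on the plus strand. Capitals mark matches to CCAAT and GGGCGG on either strand.
Dlx2: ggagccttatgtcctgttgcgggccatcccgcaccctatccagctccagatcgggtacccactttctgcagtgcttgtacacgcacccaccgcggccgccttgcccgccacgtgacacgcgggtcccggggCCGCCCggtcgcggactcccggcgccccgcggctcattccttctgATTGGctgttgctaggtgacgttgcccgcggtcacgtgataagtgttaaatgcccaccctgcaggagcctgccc
Sp9: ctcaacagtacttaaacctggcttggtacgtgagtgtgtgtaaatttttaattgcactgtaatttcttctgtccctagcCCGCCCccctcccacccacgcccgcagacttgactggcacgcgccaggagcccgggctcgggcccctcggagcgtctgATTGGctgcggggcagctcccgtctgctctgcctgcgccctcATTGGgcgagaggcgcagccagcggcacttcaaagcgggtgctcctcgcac

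Both windows hold CCAAT (as ATTGG on the gene's strand) and GGGCGG (as CCGCCC). The CCAAT match of Dlx2 starts 74 bases before the start site, and those of Sp9 start 93 and 51 bases before it. The promoter table holds 9 windows for 7 of the 9 genes, Dlx1, Dlx2, Lhx6, Sp9, Gad1, Gad2 and Erbb4, without Dlx5 and Dlx6. CCAAT was found in 5 of these 9 windows (Dlx2, Sp9, Gad2 and Lhx6) and in 33.8% of all 32851 windows of the table. GGGCGG was found in 5 (Dlx2, Sp9, Gad1 and Lhx6) and in 32.7% of all, and TATAAA in 1 (Gad1) and in 12.4%. TAATTA, a core letter sequence bound by many homeodomain proteins, was in none of the 9 and in 4.84% of all windows. The 4 motifs were searched on both strands and do not overlap in the printed windows, and a match here is a description of letters only.

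Gad1 and Gad2 encode the glutamate decarboxylases that make GABA. Gad1 (ENSMUSG00000070880) had 1.65 and 2.21 CPM (E12.5), 4.24 and 3.33 (E14), 19.6 and 18.6 (E15.5), 24.5 and 26.7 (E17), and 51.1 and 54.1 (P0). Gad2 (ENSMUSG00000026787) had 0.440 and 0.337 CPM (E12.5), 0.574 and 0.729 (E14), 2.11 and 2.45 (E15.5), 2.57 and 3.08 (E17), and 3.37 and 4.75 (P0). In both genes every stage lay above the stage before it without overlap, which of the 9 genes was so for these only. At E12.5, Gad2 rested on 8 and 9 counts, and it passed the filter of 32 summed counts only through later stages, where it is high.

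Gad1 had the largest rise of the 9 genes in the step to E15.5, 2.36 (log2, SE 0.15, limma-voom adjusted p 6.04e-05), more than that of 99.1% of all genes tested. Gad2 rose by 1.74 in this step (SE 0.29, adjusted p 0.00248). From E17 to P0, Gad1 rose by a further 1.05 (SE 0.12, adjusted p 0.00203), whereas the value of Gad2, 0.62 (SE 0.19, adjusted p 0.0503), was not called. Leaving out P0 replicate 1 gave 1.08 for Gad1 and leaving out P0 replicate 2 gave 1.0, and the rise was called in every fit that left out a single library (adjusted p 0.000807 to 0.0324). It was not called in a fit of the E17 and P0 libraries alone (1.05, adjusted p 0.0936), where limma-voom called no gene of the whole table, with 2957 at an unadjusted p under 0.05. The value of Gad2 was 0.76 and called without P0 replicate 1 (adjusted p 0.00843), and 0.28 without P0 replicate 2 (0.421).

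Erbb4 encodes a receptor tyrosine kinase for neuregulins that migrating interneurons carry. Erbb4 (ENSMUSG00000062209) had 1.49 and 1.23 CPM (E12.5), 1.5 and 2.12 (E14), 4.43 and 3.88 (E15.5), 5.81 and 5.74 (E17), and 3.05 and 4.13 (P0). Its E17 libraries were the highest, both above all others, and its P0 libraries overlapped those of E15.5. Erbb4 rose by 1.2 (log2) in the step to E15.5 (SE 0.21, limma-voom adjusted p 0.00294). From E17 to P0 the value was -0.60 (SE 0.18, adjusted p 0.0513) and missed the threshold. It was -0.49 (adjusted p 0.0471) without P0 replicate 1, which held 28 counts of Erbb4, and -0.90 (0.0401) without P0 replicate 2, and was called in both.

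Adjacent stages were compared to place the rise in time. From E12.5 to E14, the fitted values of all 9 genes were above 0, from 0.45 (Erbb4) to 1.34 (Lhx6) on the log2 scale, and Lhx6 was called, against a background of 0.497% of genes called higher and 0.141% called lower. In 8 of the 9 genes, Dlx6 being the exception, both E14 libraries stood above both E12.5 libraries, as they did in 27% of all genes. The count of called genes in this step was 0 without any 1 library of E12.5, E14, E15.5 or E17, where 5 or 6 of the 9 genes had an unadjusted p under 0.05 and Lhx6 had an adjusted p of 0.0615 to 0.196. In those fits 0 to 5 genes of the whole table were called. It was 5 without either P0 library and 5 with DESeq2 (Lhx6, Dlx1, Dlx2, Dlx5 and Gad1), 4 with sample quality weights, 3 with edgeR (Lhx6, Dlx1 and Dlx2) and 2 with library totals. Those fits also called more or fewer of all genes, 7.85% and 7.79% in either direction without P0 replicate 1 or 2, 2.96% with DESeq2, 4.86% with quality weights, 0.63% with edgeR and 1.06% with library totals. The log2 fold change of Lhx6 stayed between 1.30 and 1.40 in all of these fits.

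From E14 to E15.5, 8 of the 9 genes were called higher, again without Dlx6, against a background of 16.5% of genes called higher and 19.6% called lower. The fitted values ran from 0.73 (Dlx6) to 2.36 (Gad1), with a median of 1.51 against -0.01 for all genes. Both E15.5 libraries stood above both E14 libraries in all 9 genes and in 38.1% of all genes tested. The count of called genes was 7 to 9 over all alternatives.

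**Figure D2:**
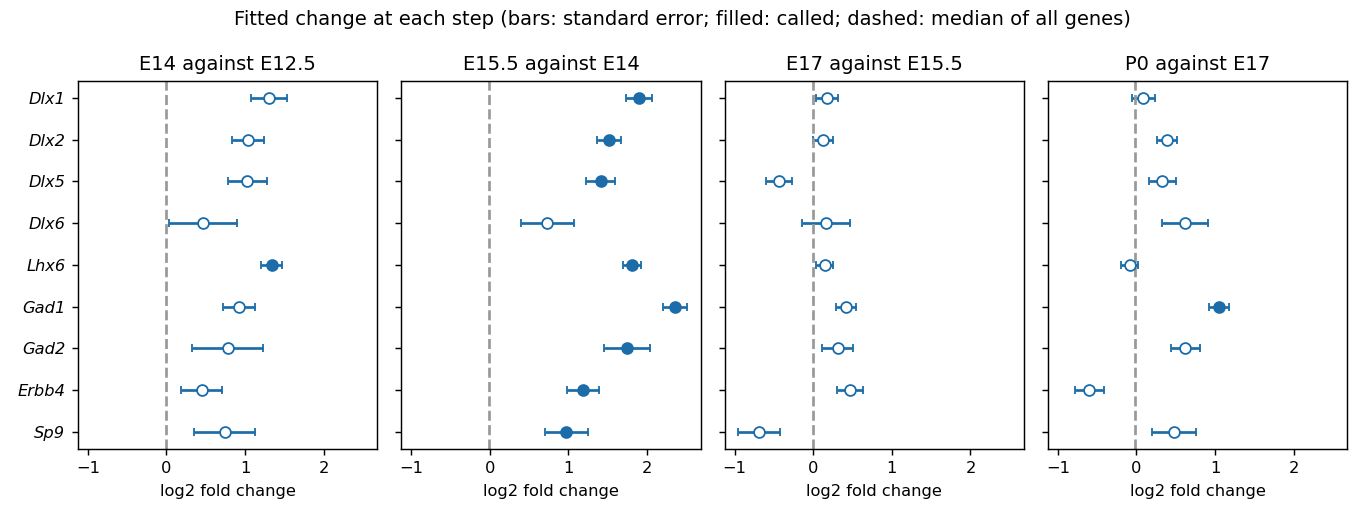
Fitted log2 fold change of the 9 genes at the 4 steps between adjacent stages, with bars for the standard error, filled points for called changes and a dashed line at the median of all genes. In the step from E14 to E15.5, 8 of 9 points are filled and all lie above 0.7, whereas in the step from E15.5 to E17 none is filled and the points of Dlx5 and Sp9 lie below 0.

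From E15.5 to E17, limma-voom called 0 of the 9 genes, against a background of 5.61% of genes called higher and 3.43% called lower, and 4 had an unadjusted p under 0.05 (Dlx5, Gad1, Erbb4 and Sp9). The fitted values ran from -0.69 (Sp9) to 0.47 (Erbb4), and both E17 libraries stood above both E15.5 libraries in 5 of the 9 genes and in 34% of all genes. With edgeR the count was 0 as well (3 with an unadjusted p under 0.05), and with DESeq2 it was 0 (1 under 0.05). The same 4 genes were called under sample quality weights, and likewise in a fit of these stages alone, Gad1 and Erbb4 higher and Dlx5 and Sp9 lower at E17. The count was 2 without either P0 library (Gad1 and Erbb4) and 1 with library totals (Gad1). The share of all genes called in either direction was 27.6% with quality weights, 23.8% in the fit of these stages alone, 20.8% and 20.9% without P0 replicate 1 or 2, and 9.11% with library totals.

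From E17 to P0, 1 of the 9 genes, Gad1, was called higher, against a background of 9.46% called higher and 11.1% called lower. Both P0 libraries stood above both E17 libraries in 6 of the 9 genes and in 26.9% of all genes. Leaving out P0 replicate 1 gave 3 called genes (Gad1, Gad2 and Erbb4), and leaving out P0 replicate 2 also gave 3 (Gad1, Dlx2 and Erbb4), with Erbb4 lower at P0 in both. These fits called 32% and 32.4% of all genes in either direction. Against E12.5, all 9 genes were called higher at E15.5, E17 and P0, where the background was 22.2%, 26.9% and 30.1% called higher and 24%, 27.8% and 32% called lower. In each of these comparisons both later libraries stood above both E12.5 libraries in all 9 genes, as they did in 39.7%, 41% and 36.4% of all genes. These 3 comparisons share the E12.5 libraries, so they are not independent of each other.

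Gad1 footprints were then set against those of each other gene within a library, which needs no scaling between libraries. The log2 ratio of Gad1 to Lhx6 counts was -2.21 and -1.79 (E12.5), -2.23 and -2.50 (E14), -1.83 and -1.82 (E15.5), -1.59 and -1.52 (E17), and -0.63 and -0.25 (P0). Both P0 libraries lay above all others, and the E12.5 libraries overlapped those of E15.5. The ratio of Gad1 to Dlx1 followed a like course, with means of 0.31 ± 0.30 (SD, n = 2, E12.5), -0.03 ± 0.11 (E14), 0.42 ± 0.13 (E15.5), 0.66 ± 0.05 (E17) and 1.66 ± 0.25 (P0). The ratio to Gad2 was 3.18 ± 0.09 (E17) and 3.72 ± 0.29 (P0), and that to Erbb4 2.14 ± 0.10 and 3.89 ± 0.25. In all 8 ratios the mean was highest at P0. Gad1 had the largest fitted value of the 9 genes from E17 to P0 (1.05), so that this is partly set by its choice. The E17 and P0 libraries overlapped in the ratio to Dlx6 (2.89 and 3.69, then 3.29 and 3.89). They also overlapped in that to Sp9 (3.439 and 3.889, then 3.877 and 4.364), whereas in the others both P0 libraries lay above both of E17. The differences between stages in these ratios were not tested.

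**Figure D3:**
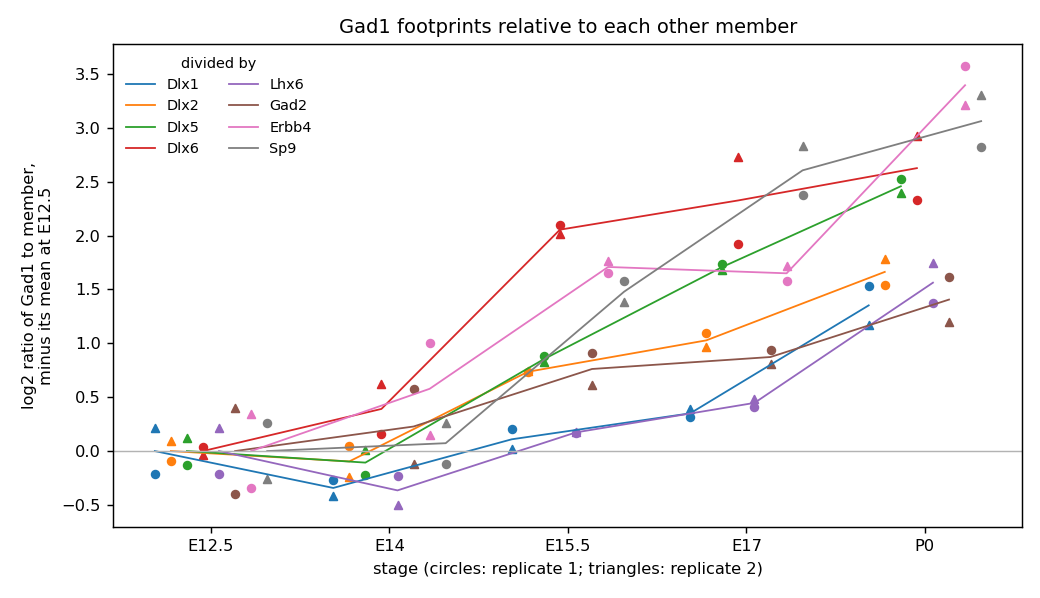
Log2 ratio of Gad1 counts to those of each of the other 8 genes in each library, minus the mean of that ratio at E12.5, with circles for replicate 1, triangles for replicate 2 and lines through the stage means. The lines for Dlx1 and Lhx6 stay near 0 up to E15.5 and rise at P0, while those for Dlx6, Erbb4 and Sp9 are above 1 from E15.5 on.

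Other genes of the lineage were counted from 10 lists of known markers, which had been written with earlier results of these data known. The background of every count below is 30.1% of genes called higher and 32% called lower at P0 against E12.5, and 16.5% and 19.6% at E15.5 against E14. A gene with under 32 summed counts at E12.5 passed the filter only through later stages where it is high, so that its call is partly set by the filter. Of 8 ganglionic eminence progenitor factors, 6 were tested and 3 were called higher at P0 than at E12.5, Olig2 and, from a summed 0 and 2 counts at E12.5, Gsx2 and Vax1, all 3 of which passed the filter only in this way. Without E12.5 replicate 2 the count was 1. Most of them had few footprints: 7 of 8 were under 1 CPM in both E12.5 libraries and 4 in both P0 libraries. Nkx2-1, the defining factor of the medial ganglionic eminence, had 0.385 and 0.037 CPM (E12.5) and 0.979 and 0.406 (P0), and Lhx8, a factor of its cholinergic and projection lineages, had 1 count in all 10 libraries together. Olig2, which the eminences and the oligodendrocyte lineage share, rose from 0.612 CPM in the first stage to 15.8 in the last (4.40 on the log2 scale, SE 0.62, limma-voom adjusted p 0.000385).

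Among 12 tested of 13 other interneuron transcription factors, 7 were called higher and 2 lower at P0 than at E12.5. Npas1, 1 of the 7, had 3 and 2 counts at E12.5 and passed the filter only through later stages. Satb1, a chromatin organiser of maturing interneurons, rose from 13.6 to 102.8 CPM (2.93, SE 0.15, adjusted p 1.45e-06), and Maf, a factor of medial ganglionic eminence interneurons, from 5.82 to 31.9 CPM (2.47, SE 0.19, limma-voom adjusted p 1.26e-05). Sox6, which acts in those interneurons and also in cortical progenitors, fell from 69.9 to 26.4 CPM (-1.38, SE 0.13, adjusted p 4.21e-05). The other factor that fell, Sp8 (named after its values were seen), is the closest relative of Sp9 and had 4.30 CPM at E12.5 and 2.49 (P0) (-0.90, SE 0.20, adjusted p 0.00454). From E14 to E15.5, when Sp9 rose, Sp8 fell from 3.41 to 1.90 CPM (-0.80, SE 0.20, adjusted p 0.0156). Several of these factors are known in other cortical cells as well, so their counts are not those of interneurons alone.

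Genes of GABA transport and breakdown were tested for all 6 members, and 5 were called higher (Slc32a1 and Slc6a11 having passed the filter only through later stages) and 1 lower at P0 than at E12.5. Abat, the transaminase that degrades GABA, rose from 6.37 to 31.5 CPM (2.25, SE 0.18, adjusted p 1.34e-05). Slc32a1, the vesicular GABA transporter (named after its values were seen), had 0.495 and 0.524 CPM (E12.5), 1.02 and 1.01 (E14), 2.05 and 1.69 (E15.5), 3.18 and 3.19 (E17), and 3.92 and 2.7 (P0). It was called higher from E14 to E15.5 (0.88, SE 0.24, adjusted p 0.0207) and again from E15.5 to E17 (0.75, SE 0.19, limma-voom adjusted p 0.0448), a step in which none of the 9 genes was called, and not from E17 to P0 (-0.10, SE 0.18, adjusted p 0.729), a step in which Gad1 rose. The gene that was lower, Slc6a13, a transporter known from the meninges, had 16 and 22 counts at E12.5 and 0 and 1 at P0.

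Of 7 genes of other ErbB receptors and neuregulins, 5 were tested, and 3 (Egfr, Nrg2 and Nrg3) were called higher and 2 (Erbb2 and Nrg1) lower at P0 than at E12.5. Nrg2 passed the filter only through P0 and Erbb2 only through E12.5 and E14, and without E12.5 replicate 2 the 5 calls became 3. Nrg1, a neuregulin that binds ErbB4, fell from 16.3 to 5.32 CPM (-1.51, SE 0.21, limma-voom adjusted p 0.000312). Its libraries held 16.9 and 15.7 CPM (E12.5), 17.3 and 19.2 (E14), 14.3 and 11.1 (E15.5), 16.1 and 14.9 (E17), and 4.13 and 6.51 (P0). Nrg1 and Erbb4 were thus both lower in both P0 libraries than in both E17 libraries. Among the 10 genes of interneuron migration guidance, 3 (Robo1, Hgf and Met) were called higher and 6 lower at P0 than at E12.5. The list median was -0.96 on the log2 scale. At E17 against E12.5, 5 were called higher and 2 lower (median 0.57), with a background of 26.9% called higher and 27.8% called lower. From E17 to P0, 0 were called higher and 6 lower (median -1.03), with a background of 9.46% and 11.1%, and 0 of the 10 had a fitted value above 0. Hgf and Met passed the filter only through later stages. Robo1 rose (0.40, SE 0.15, adjusted p 0.0481), and Nrp2, a semaphorin receptor, and Cxcl12, a chemokine that draws interneurons along their streams, fell (-2.20, SE 0.13, 3.46e-06, and -1.72, SE 0.22, 0.000229). Cxcr4, the receptor of Cxcl12 (named after its values were seen), was called lower from E17 to P0, from 19.2 to 9.27 CPM (-1.16, SE 0.18, limma-voom adjusted p 0.00466).

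Among 15 tested of 18 interneuron subtype genes, which become active as these cells mature, 10 were called higher at P0 than at E12.5, of which 3 (Vip, Elfn1 and Ndnf) passed the filter only through later stages. The neuropeptide genes Cck and Npy had the largest rises of those with at least 100 counts on average, from 3.33 to 116.5 CPM (5.10, SE 0.18, limma-voom adjusted p 5.06e-07) and from 3.09 to 83.1 CPM (4.73, SE 0.16, adjusted p 4.84e-07). Npy was at 4.90 and 4.72 CPM (E14) and at 45.0 and 50.0 (E15.5). Pvalb, a marker of a late-maturing class, had 0 to 2 counts in each library. Cck is also expressed by glutamatergic neurons, and the lists do not separate the cells that carry a gene.

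**Figure D4:**
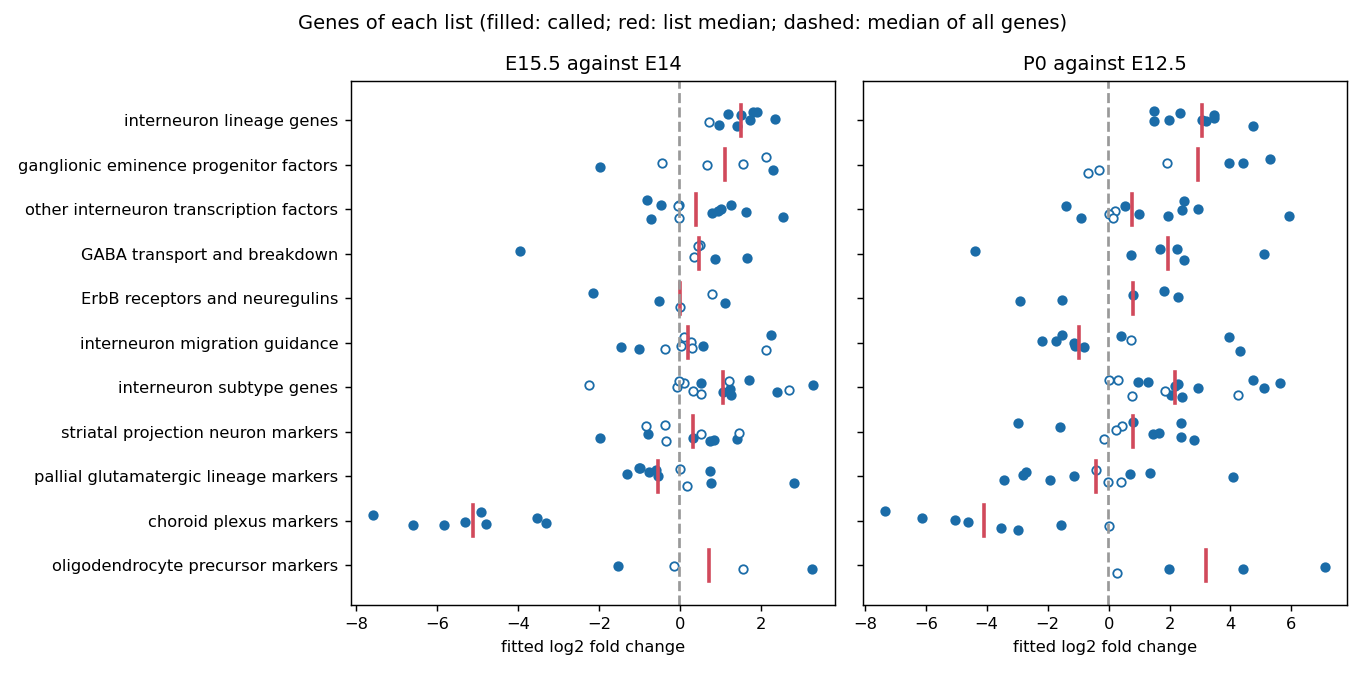
Fitted log2 fold change of each tested gene of the 9 interneuron lineage genes and of the 10 marker lists, from E14 to E15.5 (left) and from E12.5 to P0 (right), with filled points for called changes, red lines at list medians and dashed lines at the median of all genes. The 9 genes lie to the right of 0 in both panels, the choroid plexus markers have medians of -5.10 and -4.08, and the other lists hold genes on both sides, except that the subtype genes and the oligodendrocyte precursor markers lie to the right of 0 from E12.5 to P0.

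Markers of neighbouring tissue and other cells were measured beside the rise from E14 to E15.5. The 10 choroid plexus markers summed to 287 and 341 CPM in the E12.5 libraries, 1136 and 1144 (E14), and 12.03 and 15.01 (E15.5), and 8 of 8 tested were lower at E15.5 than at E14. Of these 8, 6 (Folr1, Clic6, Aqp1, Otx2, Kcnj13 and Sostdc1) held under 32 summed counts at E15.5. They passed the filter only through other stages, so that their calls are partly set by it. Ttr, the most abundant of the 10 markers, had 1080 and 1083 CPM (E14) and 12.7 and 9.80 (E15.5), so that the E14 and E15.5 libraries also differ in how much choroid plexus RNA they hold. Its part in the rise of the 9 genes was not tested. Of 15 striatal projection neuron markers, 11 were tested, with 4 called higher and 2 lower at E15.5 than at E14 and 6 higher and 2 lower at P0 than at E12.5, and their summed level was 293 to 299 CPM at E12.5, 314 to 320 at E14, 431 to 432 at E15.5, 438 to 453 at E17 and 386 to 436 at P0. The 6 calls at E15.5 became 3 without either E15.5 library, and the 8 calls at P0 became 5 without E12.5 replicate 1. Drd1, called higher at P0, passed the filter only through later stages, and Ebf1 and Zfp503, called lower, only through earlier ones. Ppp1r1b, a phosphoprotein of striatal projection neurons that is named after its values were seen, had 13.97 and 11.5 CPM (E12.5), 25.0 and 25.3 (E14), 44.3 and 46.8 (E15.5), 45.9 and 39.6 (E17), and 36.3 and 33.5 (P0). It was thus higher at E15.5 than at E14 in both libraries (0.86 on the log2 scale, SE 0.12, limma-voom adjusted p 0.00115). Meis2, a homeodomain gene of striatal and other neurons and also named after its values were seen, had 224 and 226 CPM (E14) and 286 and 279 (E15.5), and was called higher too (0.32, SE 0.08, limma-voom adjusted p 0.018). The part of striatal RNA in the rise of the 9 genes was not tested. Foxp1 and Rgs9 had the largest rises of those with enough counts from E12.5 to P0, 1.67 (SE 0.13, limma-voom adjusted p 1.43e-05) and 2.38 (SE 0.36, 0.000522), and Foxp1 is also a gene of cortical neurons. Drd2 and Isl1, which define striatal neurons, had at most 2 and 6 counts in a library, and Drd1 was between 0.055 and 0.699 CPM.

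The tissue carried its own markers at all stages: none of the 11 pallial glutamatergic lineage markers was under 1 CPM in both libraries of any stage. Of these 11, 3 were called higher and 5 (Eomes, Emx1, Emx2, Pax6 and Slc17a6) lower at P0 than at E12.5. Eomes, a factor of intermediate progenitors, fell from 60.2 to 6.17 (-3.45, SE 0.20, adjusted p 3.15e-06). Neurod2 (1.37, SE 0.23) rose and Emx2 (-2.82, SE 0.14) fell as well. Of 5 oligodendrocyte precursor markers, 4 were tested and 3 (Olig1, Olig2 and Sox10) were called higher at P0 than at E12.5, Olig1 and Olig2 having passed the filter only through later stages. Olig1 had 0.275 and 0.187 CPM (E12.5), 2.83 and 3.12 (E15.5), and 46.3 and 26.0 (P0).

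The 9 genes were last compared in the course of their levels over the 10 libraries, as log2 CPM with a prior count of 2. Pearson's r between pairs was 0.991 for Dlx1 and Lhx6, 0.986 for Dlx1 and Dlx2 and 0.982 for Gad1 and Gad2, and lowest for Erbb4 with Sp9 (0.603) and with Dlx6 (0.659). All pairs share the same libraries and the same rise with stage, and many genes of the table rise likewise, so these values are a description. Among the genes with at least 100 counts on average, the 3 closest to Gad1 were Ripor2 (r 0.999), Jazf1 (0.998) and Fbxl17 (0.998). Those closest to Lhx6 were Mpped1 (0.998), Brsk1 (0.997) and Zbtb20 (0.996), to Dlx1 Zbtb38 (0.997), Tanc2 (0.996) and Prmt2 (0.995), and to Dlx2 Rab3a (0.998), Sh3bp5 (0.998) and Psd2 (0.998). For Dlx5 they were Hspa12a, Flot1 and Tspyl1 (0.987 to 0.991), for Dlx6 Rabif, Foxj2 and Keap1 (0.981 to 0.987), for Gad2 Rab12, Nexmif and Rims1 (0.995 to 0.996), for Erbb4 Limch1, Neto2 and Kidins220 (0.987 to 0.989), and for Sp9 Nipsnap1, Ahdc1 and Ttc5 (0.963 to 0.981).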

How the data were processed

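Neocortex Ribo-seq footprints were measured in 10 libraries, grouped by stage from their labels. The authors deposited whole-number counts per gene, not scaled to depth. By the methods of the study, reads were freed of adapters, duplicates and structural RNA, then mapped with STAR against coding transcripts and, separately, the genome (the submitters' processing notes name STAR 2.7.0). The methods also name an isoform estimate summed to genes. Whether these counts came from it, their strand setting and their treatment of reads with several matches are not given in the sources used here. No other gene had counts within 5% of a member's in every library. RNA-seq of the same tissue was not analysed here. Coding lengths were not used either, so ratios, sums and rankings across genes compare footprint counts and not density per length.

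Counts were analysed in R 4.3.3. Of 22373 identifiers, 22274 matched a symbol. Genes with at least 32 footprints in a stage were kept. Library sizes were scaled by TMM (edgeR 4.0.16) and fitted with limma-voom (limma 3.58.1), with 1 coefficient per stage over all libraries, as the study's methods use limma. Tests were two-sided over 7 comparisons and an F test, and a call needed an adjusted p under 0.05 and a fold of 1.25. Alternatives were library totals or DESeq2 size factors, other filters, edgeR, DESeq2 1.42.0, sample quality weights, the stages compared alone, a replicate block, no fold threshold and leaving out each library. The code was tested on simulated counts. Replicates differed beyond sampling noise. The study describes the replicates as biological duplicates from independent pools of tissue. The labels do not say that they come from separate litters, and p-values measure the spread between these pools.

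The 9 genes and the lists were chosen with earlier results of these data known. Named from each list were up to 2 genes with the largest rise and 2 with the largest fall from E12.5 to P0, among called genes that averaged 100 counts or more, and for each of the 9 genes the 3 with the highest Pearson's r. Others are marked as named after their values were seen, apart from defining markers of a tissue. Some genes that this rule names are not reported here.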

Additional observations from a re-analysis of the deposited data

How the results depend on the processing

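Of 1260 results of single genes under other settings, 1187 kept the direction and the side of the threshold. A call was gained in 39 and lost in 29, and 5 changed sign, none of them among the 180 of P0 against E12.5. These results are not independent of each other. They include the main fit read without a fold threshold, and fits that left out a library of neither stage compared. The number of the 9 genes called from E12.5 to E14 (1) was 2 with total counts only, 3 with edgeR, 5 with DESeq2, 4 with sample quality weights and 0 to 5 without single libraries. From E15.5 to E17 (0) it was 1 with total counts only, 4 with quality weights, 4 in a fit of only these stages and 0 to 2 without single libraries. From E17 to P0 (1) it was 3 with total counts only, 2 with DESeq2 size factors, 0 in a fit of only these stages and 1 to 3 without single libraries. From E14 to E15.5 (8) leaving out libraries gave 7 to 8, against E12.5 8 to 9 at E15.5, 7 to 9 at E17 and 9 at P0, and for the F test 7 to 9. Signs turned for Dlx2 (-0.0048 to 0.25 without single libraries) and Dlx6 (-0.19 to 0.48) from E15.5 to E17, and from E17 to P0 for Dlx1 (-0.18 to 0.26) and Lhx6 (-0.22 to 0.073, and 0.025 with total counts only). Where no value above shows it, the cause was not tested.

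The labels do not say that replicate numbers pair the libraries, and the main fit held no pairing. Deviations of same-numbered libraries had correlations of -0.63 to 0.43 over 10 pairs of stages, 5 of them over 0.1. All those with E12.5 were negative (-0.63 to -0.11), and those among the other stages ran from -0.04 to 0.43. With the number as a replicate block, 1, 8, 0 and 1 of the 9 genes were called in the 4 steps and 9, 8 and 9 against E12.5, where Sp9 at E17 was lost (adjusted p 0.0559).

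All genes called from E12.5 to E14 (86) were 8 to 655 over the other settings and 0 to 1059 without single libraries, from E15.5 to E17 (1219) 773 to 3717 and 0 to 2814, and from E17 to P0 (2767) 0 to 2884 and 554 to 4372. From E14 to E15.5 (4868) they were 2739 to 6270 without single libraries. Total counts only moved the median of all genes up by 0.29 (log2, E14 to E15.5) and by 0.53 (E12.5 to P0), and the share of higher calls from 45.6% to 72.7% and from 48.5% to 72.0%. Of the lists, from E14 to E15.5, calls rose from 2 to 5 (eminence factors, with quality weights), from 3 to 6 (GABA genes, likewise) and from 7 to 11 (subtype genes, in a fit of only these stages). From E12.5 to P0, quality weights moved them from 5 to 3 (ErbB genes), from 8 to 5 (striatal markers) and from 7 to 4 (choroid plexus markers). Without single libraries, list calls from E14 to E15.5 were 0 to 4 (eminence factors), 1 to 5 (GABA genes), 1 to 3 (ErbB genes, from 3), 5 to 9 (other transcription factors, from 9), 3 to 6 (striatal markers, from 6) and 1 to 3 (oligodendrocyte precursors, from 2). From E12.5 to P0 they were 1 to 4 (eminence factors, from 3), 3 to 5 (ErbB genes) and 5 to 8 (striatal markers). Spearman's rho tied several genes over the 10 libraries, and ties were ordered by symbol. Its closest 3 genes for each of the 9 shared only 3 of 27 with those by Pearson's r. The genes named as closest thus depend on the measure. Counts of Dlx6, Sp9, Gad2 and Erbb4 were below 50 in several libraries. At E12.5 so were those of Dlx1 (28 and 41), Dlx2 (22 and 38) and Dlx5 (26 and 43), and Gad1 had 30 and 59. Such counts limit the size of change that can be seen in single steps. Footprint density per coding length was planned and was not run, since coding lengths were not used here.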
